A study of Betula luminifera with 4 samples.

Results

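The MYB transcription factors of the birch Betula luminifera are described here as the 75 assembled genes, of 76899 in the deposited table, whose best protein match carries a MYB name. A gene entered when it had a plant match (a walnut, Juglans, protein or an Arabidopsis thaliana protein), as 26828 genes did, and when its Swiss-Prot name, or its Nr name where Swiss-Prot gave none, read "transcription factor MYB" or "Myb-related protein". Names that hold "PHR1" or "PHOSPHATE STARVATION" were to be left out, and 0 of the genes with a MYB name also carried one. Relatives of PHR1 under other names were not removed by this rule. The naming rule reads no expression value, though the family was picked with earlier results of these data known. Levels are in TPM, a share of the library corrected for contig length.

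All plants were clone G49# of B. luminifera, multiplied in culture as seedlings 2 months old and then kept in sterilized sand; 54 plants entered the experiment, in blocks of 3 replicates, and how many stand behind a library is not stated in the labels. Every plant first received normal medium for 2 weeks and water for 2 weeks. The control plants (CK) were then watered with a modified Murashige and Skoog medium with 1.25 mM KH2PO4, and the phosphate-deprived plants (LP) with the same medium lacking KH2PO4 and given K2SO4 for potassium. From each medium 1 root library and 1 shoot library of poly(A) RNA were sequenced, the shoot library from equal amounts of stem and leaf RNA, which gives 4 libraries of 1 clone. With 1 library in each group there is no spread between replicates and no test, so every difference below is a difference between libraries. The rule for calling a difference asks for 1 TPM or more in the larger library and a log2 ratio of 1 or more in either direction, after adding 1 TPM to both values; it is called the size rule below. In bulk tissue, fewer cells of a type and less RNA per cell cannot be told apart.

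MYB proteins bind DNA through a helix-turn-helix repeat that most plant members carry as a pair, some once and a few in a row of more. In Arabidopsis and other plants they switch the phenylpropanoid pathway on and off, build secondary walls, suberin and the Casparian strip, respond to abscisic acid and drought, and drive mitosis. Their names here are those of the best match and not proof of orthology. Of the 61 members named by Swiss-Prot, 21 had an Nr match of the same name, and of the 11 contigs named MYB44 only 3 did. A MYB DNA-binding domain was listed in the Pfam column for 56 of the 75 members. No Pfam entry was given for 17, and another domain for 2. One of these, a contig named MYB44 of 1772 bp, carried a beta-lactamase fold domain and was a putative hydrolase in Nr, so its MYB name is doubtful. The other was the MYB39 contig of 920 bp, with a COX15/CtaA domain, whose Nr name was MYB30-like. Contigs ran from 220 to 2515 bp with a median of 724 bp, and 26 were shorter than 500 bp; below, contigs that share a name are told apart by their length.

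The shoot and root labels were checked on 25 photosynthesis genes. They summed to 22339 TPM in CK shoots, 15797 TPM in LP shoots, and 416 and 3901 TPM in CK and LP roots, and without a single contig (OsI_012078) the root sums were 229 and 203 TPM. A Casparian strip membrane protein, of the root endodermis, stood at 94.4 TPM in CK roots, 20.0 TPM in LP roots, 0 in CK shoots and 0.08 TPM in LP shoots. SHORT-ROOT, a regulator of root patterning with 3 contigs, summed to 48.3 and 3.54 TPM in CK and LP roots and to 46.3 and 34.2 TPM in CK and LP shoots, so it did not separate the tissues. The list of 51 root genes picked up mostly proteins named for a root mutant and was 11 higher and 26 lower in CK roots against CK shoots, and did not tell them apart either. Plant-matched genes held 52.2% and 40.5% of all TPM in CK and LP roots, and 63.8% and 59.7% in CK and LP shoots. Their median log2 ratio put LP roots 0.54 below CK roots and LP shoots 0.11 above CK shoots over 11284 genes, and roots 0.11 and 0.78 below shoots in CK and LP. Values called scaled below are relative to these medians. Yeast-matched genes held 2.19% of the TPM in LP roots and 0.889% in CK roots. Genes above 0 numbered 26711 and 56647 in CK and LP roots, and 39046 and 50435 in CK and LP shoots, so the root libraries differed most. The part of these differences in the MYB results was not tested. For a contig of 400 bp, 1 fragment was worth 0.170 and 0.089 TPM in CK and LP roots. In CK and LP shoots it was worth 0.209 and 0.176 TPM. A value of 10 TPM at this length thus had a counting error between 9.43% and 14.4%. On shorter contigs 1 fragment is worth more TPM, so the error at the same level is larger.

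More MYB contigs were detected in shoots than in roots. Above 0 were 37 and 42 members in CK and LP roots, and 64 and 67 in CK and LP shoots. As a share of the family this was 49.3% in CK roots, against 59.3% of all plant-matched genes there, and 85.3% in CK shoots, against 83.5%. In LP roots 56% of the members and 74.7% of plant-matched genes were above 0. At 0 in both root libraries were 26 members (34.7%, against 19.6% of plant-matched genes), and at 0 in both shoot libraries 6 (8%, against 5.52%). Members above 0 in all 4 libraries numbered 27 (36%, against 50.2% of plant-matched genes).

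A single contig held most of the MYB RNA in shoots. This was the contig of 1385 bp named MYB44 (TRINITY_DN27487_c1_g2; Arabidopsis MYB44 acts in abscisic acid and stress responses), assembled as 7 isoforms and called myb-like protein B in Nr. It stood at 46.7 TPM in CK roots, 39.9 TPM in LP roots, 6736 TPM in CK shoots and 9249.7 TPM in LP shoots. In both shoot libraries it ranked 2 among all genes of the table and made up most of the family's TPM, 85.6% of it in LP shoots. Whether this contig was assembled correctly was not tested, and its level and the shoot sums rest on that. Between tissues the log2 ratio was -7.14 in CK and -7.82 in LP, root against shoot, while between media it was -0.22 in roots and 0.46 in shoots, within the size rule.

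In roots the most abundant member was a contig of 1080 bp named MYB1R1 (TRINITY_DN29100_c1_g1), after a single-repeat potato factor of the drought response. Its level was 1022 TPM in CK roots, 1178 TPM in LP roots, 306 TPM in CK shoots and 457 TPM in LP shoots, which made 46.3% and 49.5% of the family's TPM in the root libraries. All members together summed to 2207 and 2379 TPM in CK and LP roots and to 8316 and 10808 TPM in CK and LP shoots. Without the MYB44 contig of 1385 bp the sums were 2160, 2339, 1580 and 1558 TPM in the same order, so the shoot sums then lay below the root sums. The median member stood at 0 and 0.27 TPM in CK and LP roots and at 9.59 and 6.38 TPM in CK and LP shoots.

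**Figure D1:**
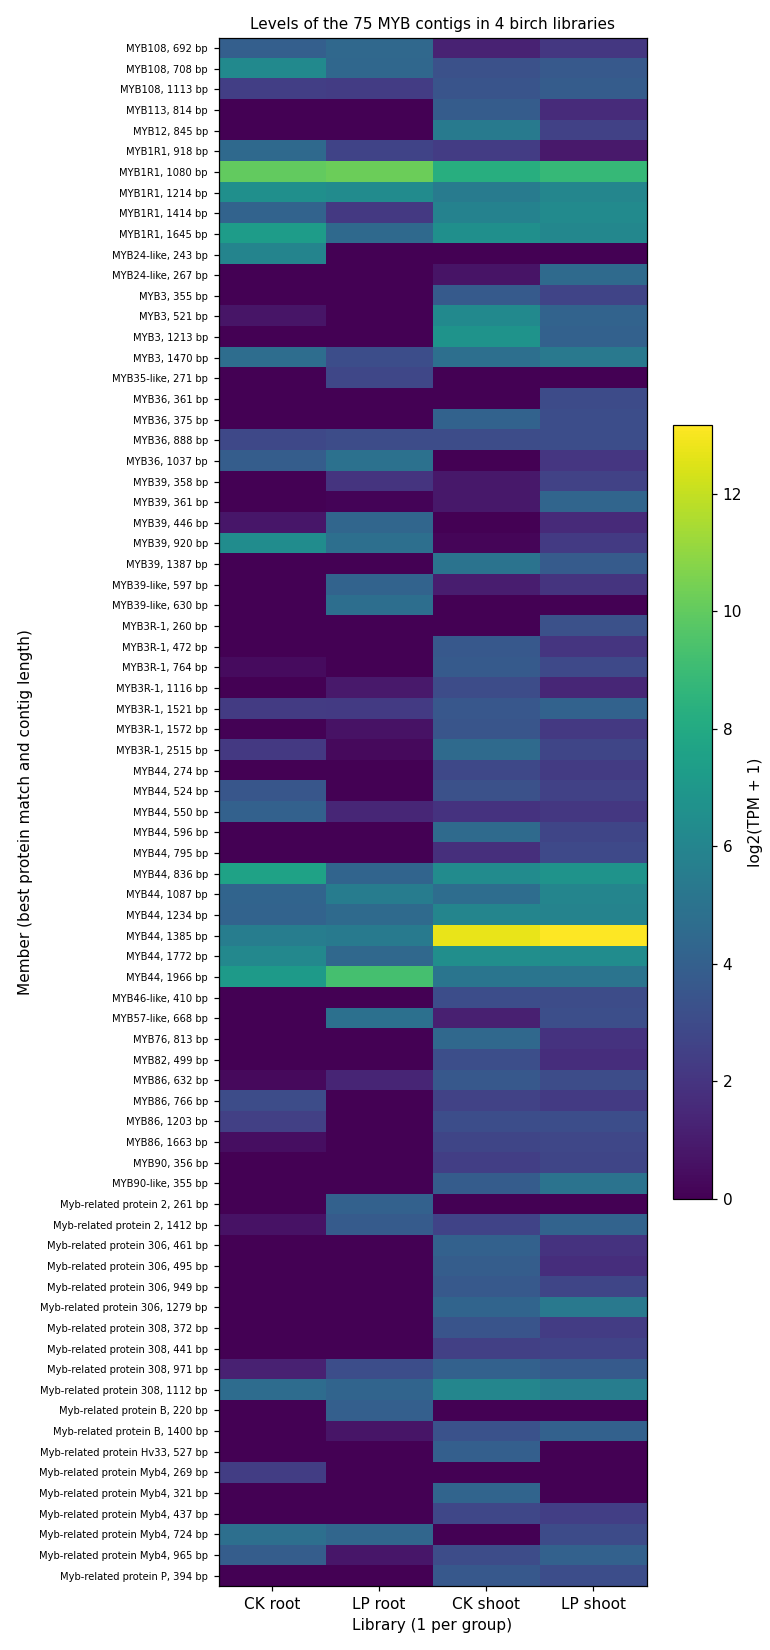
Each row is 1 of the 75 MYB contigs, named by its best protein match and length, and each column is 1 library; colour gives the level as log2(TPM + 1). Dark cells in the root columns show the 38 and 33 members listed at 0 in CK and LP roots, and the brightest cells are the MYB44 contig of 1385 bp in both shoot libraries.

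Root and shoot libraries were compared within each medium. With phosphate, 65 members reached 1 TPM in roots or shoots, and 13 were higher and 42 lower in roots. Of plant-matched genes 19.7% were higher and 52.3% lower by the same rule, and of all genes 26.5% and 54.2%. The members' 64.6% lower lay above both backgrounds. By length, 15 of 17 tested contigs under 500 bp were lower in roots, and 27 of 48 contigs of 500 bp or more. The longer contigs thus lay near the background shares, which were not split by length. Of the 42 lower members, 29 were listed at 0 in CK roots. Without phosphate 14 of 71 members were higher and 48 lower in roots, against 17.3% and 55.4% of plant-matched genes and 41.7% and 37.5% of the whole table. The median log2 ratio of members was -2.39 in CK and -1.95 in LP, and that of plant-matched genes was -1.17 and -1.29.

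In both media 35 members (46.7%) were lower in roots and 7 (9.33%) were higher, against 28.9% and 5.20% of plant-matched genes. The higher group included the MYB39 contig of 920 bp, named after an Arabidopsis factor that drives suberin deposition in the root endodermis. It stood at 83.1 TPM in CK roots, 27.4 TPM in LP roots, 0.12 TPM in CK shoots and 3.66 TPM in LP shoots. MYB36, which in Arabidopsis directs the Casparian strip, had a contig of 1037 bp at 14.01 and 29.1 TPM in CK and LP roots, listed at 0 in CK shoots and at 3.23 TPM in LP shoots. A contig of 724 bp named after rice Myb4, a factor of the cold response in rice, stood at 27.4 and 19.4 TPM in CK and LP roots and at 0 and 6.94 TPM in CK and LP shoots. The MYB44 contig of 1966 bp was at 146 and 627 TPM in CK and LP roots, against 33.5 and 32.9 TPM in shoots. These 4 contigs were higher in each root library than in either shoot library.

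Among members lower in roots were MYB306, matched to a snapdragon protein, with 4 contigs. Its most abundant contig (1279 bp) reached 18.3 TPM in CK shoots and 38.6 TPM in LP shoots, at 0.02 TPM in LP roots and at 0 in CK roots. The other MYB306 contigs, of 461, 495 and 949 bp, were listed at 0 in both root libraries and lay between 11.9 and 16.3 TPM in CK shoots. All 5 contigs of the flavonoid activators, described below, were at 0 in both root libraries as well. The opposite order between media was seen for 3 members. The MYB57-like contig of 668 bp and the MYB39-like contig of 597 bp were lower in roots in CK and higher in LP. This is 2.67% of members, against 3.06% of plant-matched genes. The MYB44 contig of 836 bp was higher in roots in CK and lower in LP, which is 1.33% against 4.64%. These counts lay near or below the background.

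**Figure D2:**
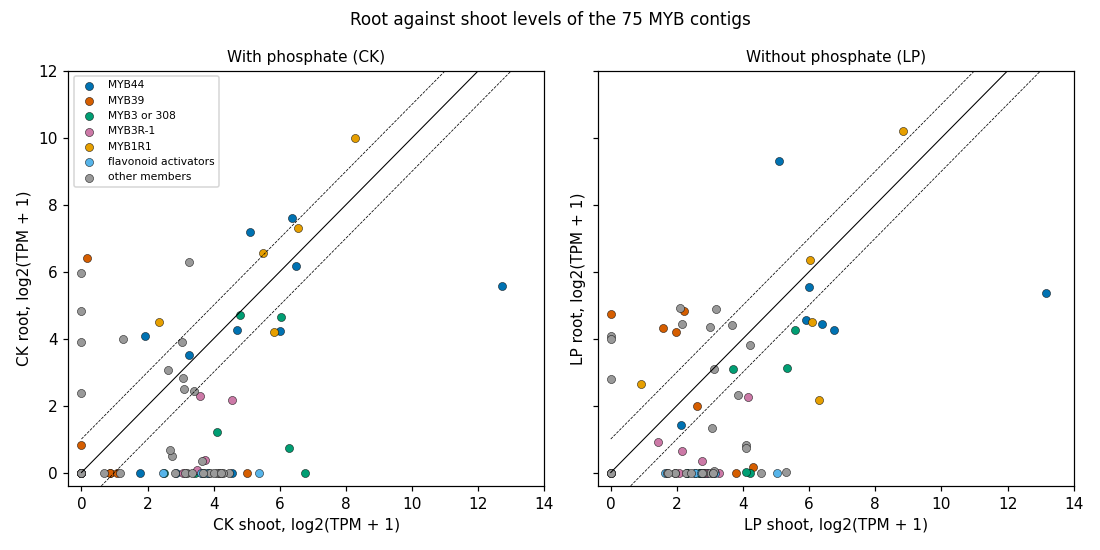
Each point is 1 MYB contig, with its shoot level on the x axis and its root level on the y axis, both as log2(TPM + 1), in CK (left) and LP (right); the solid line marks equal levels and the dashed lines a log2 difference of 1. Most points lie under the lower dashed line (42 in CK and 48 in LP), many of them on the x axis, and the MYB44 contig of 1385 bp lies far to the right.

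In roots, lack of phosphate was compared over the 40 members of at least 1 TPM in either root library. Higher in LP were 13 and lower 16, with 11 neither. This is 32.5% and 40%, where 35.7% and 35.3% of plant-matched genes and 64.2% and 22.4% of the whole table were called, so the members' shares lay near the plant-matched background. The median log2 ratio was -0.16 for members and -0.11 for plant-matched genes. With ratios scaled to the medians, 14 were higher and 16 lower. Of the 13 higher members 7 were listed at 0 in CK roots, and of the 16 lower members 4 were listed at 0 in LP roots. Contigs under 500 bp made up 5 of the higher and 2 of the lower members.

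In shoots 69 members reached 1 TPM, of which 16 were higher, 20 lower and 33 neither in LP. The shares of 23.2% higher and 28.99% lower compare with 23.9% and 20.5% of plant-matched genes and 40.1% and 23.0% of the whole table. The lower share thus exceeded the plant-matched background and the higher share was near it. By length, 8 of 21 tested contigs under 500 bp were lower in LP shoots, and 12 of 48 contigs of 500 bp or more. The lower share of the longer contigs thus lay nearer the background shares, which were not split by length. The median log2 ratio was -0.02 for members and 0.07 for plant-matched genes. With scaled ratios 14 were higher and 21 lower. Of the 20 lower members 18 were under 1 TPM in both root libraries, as were 2516 of the 5080 lower plant-matched genes. Of all 75 members only 40 reached 1 TPM in a root library. The counts of smaller groups and of pathway lists below stand against the same plant-matched shares. Listed at 0 in CK shoots were 5 of the higher members, and listed at 0 in LP shoots 2 of the lower ones.

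Among the lower members of LP shoots were contigs named after MYB factors that hold phenylpropanoid genes down. MYB3 of Arabidopsis and MYB308 of snapdragon belong to this class of repressors, and 8 contigs carried these names. Higher in LP shoots were 0 of the 8 and lower 4, where 23.9% and 20.5% of plant-matched genes were called. These counts are too few to read against those shares. The median log2 ratio was -0.74, against 0.07 for plant-matched genes. No contig named MYB3 had an Nr match of that name. The MYB3 contig of 1213 bp, matched in Nr to the snapdragon repressor, stood at 107.5 TPM in CK shoots and 16.2 TPM in LP shoots, at 0.02 TPM in LP roots and at 0 in CK roots. That is a 6.65-fold lower level in LP shoots, a log2 ratio of -2.66. A MYB3 contig of 521 bp went from 76.1 to 17.3 TPM in shoots, a 4.40-fold lower level (log2 ratio -2.07), and was at 0.66 and 0 TPM in CK and LP roots.

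The shorter contigs of MYB3 (355 bp, 12.1 and 5.44 TPM in CK and LP shoots) and MYB308 (372 bp, 9.75 and 3.99 TPM) were also lower, with log2 ratios of -1.03 and -1.11. The remaining repressor contigs did not pass the rule in shoots. MYB308 of 1112 bp, the most abundant repressor contig averaged over the 4 libraries, stood at 64.1 TPM in CK shoots and 46.4 TPM in LP shoots (log2 ratio -0.46), and at 24.3 and 18.2 TPM in CK and LP roots. The MYB3 contig of 1470 bp went the other way in shoots, from 26.8 to 39.4 TPM (0.54), while it was lower in LP roots, at 7.71 TPM against 24.9 TPM in CK roots (-1.57, scaled -1.04). In roots the MYB308 contig of 971 bp was higher in LP, at 7.56 TPM against 1.29 TPM, a 5.86-fold difference, and its shoot values were 16.3 and 12.1 TPM in CK and LP. MYB308 of 441 bp was nearly level, at 4.66 and 5.35 TPM in CK and LP shoots (0.17). Summed, the 8 contigs held 317 TPM in CK shoots and 146 TPM in LP shoots.

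Contigs named after activators of the flavonoid pathway moved both ways in shoots. There were 5, named MYB12 (flavonol synthesis in Arabidopsis), MYB113 and MYB90 (anthocyanin), MYB90-like, and P of maize (red phlobaphene pigments). MYB12, of 845 bp and called Myb-related protein B-like in Nr, stood at 40.3 TPM in CK shoots and 4.90 TPM in LP shoots, an 8.23-fold lower level with a log2 ratio of -2.81. MYB113, of 814 bp, was lower too, at 13.1 and 2.12 TPM (-2.17). The MYB90-like contig of 355 bp was higher, from 13.1 to 31.5 TPM (1.203). MYB90 itself (356 bp, 4.48 and 5.63 TPM) and P (394 bp, 11.3 and 7.81 TPM) stayed within the rule. MYB113 and the MYB90-like contig belong to the same assembly cluster and may share reads; their sum was 26.2 TPM in CK shoots and 33.6 TPM in LP shoots, a log2 ratio of 0.35, so the opposite directions of these contigs cancel in the sum.

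The enzymes downstream were counted from lists of protein names. Of 51 flavonoid genes 47 reached 1 TPM in shoots, with 16 higher, 16 lower and a median log2 ratio of 0.15, against 23.9% higher and 20.5% lower of plant-matched genes. Leucoanthocyanidin dioxygenase, which forms anthocyanidins, was at 260 TPM in CK shoots and 39.5 TPM in LP shoots (-2.69), while a dihydroflavonol 4-reductase contig of 1040 bp stood at 44.9 and 160 TPM (1.81) and anthocyanidin reductase at 28.3 and 71.95 TPM (1.31). In roots 11 of 35 flavonoid genes were higher, near the plant-matched 35.7%, and 20 were lower, against 35.3%, with a median of -1.42. Of 14 genes at the entry of the phenylpropanoid pathway, 13 reached 1 TPM in shoots, and 1 was higher and 2 lower. Phenylalanine ammonia-lyase 3 was 1 of the lower ones, at 206 and 77.9 TPM (-1.39). The list of proteins of the complexes that flavonoid MYBs form with bHLH and WD40 proteins held 6 genes, of which 0 were higher and 1 lower in LP shoots and 1 higher and 2 lower in LP roots. The higher one was itself a MYB, named after maize C1 of the anthocyanin pathway and outside the naming rule, at 0 and 1.17 TPM in CK and LP roots and 29.2 and 30.1 TPM in CK and LP shoots. TRANSPARENT TESTA GLABRA 1, a WD40 partner, had 67.6 TPM in CK and 10.7 TPM in LP roots (-2.55).

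**Figure D3:**
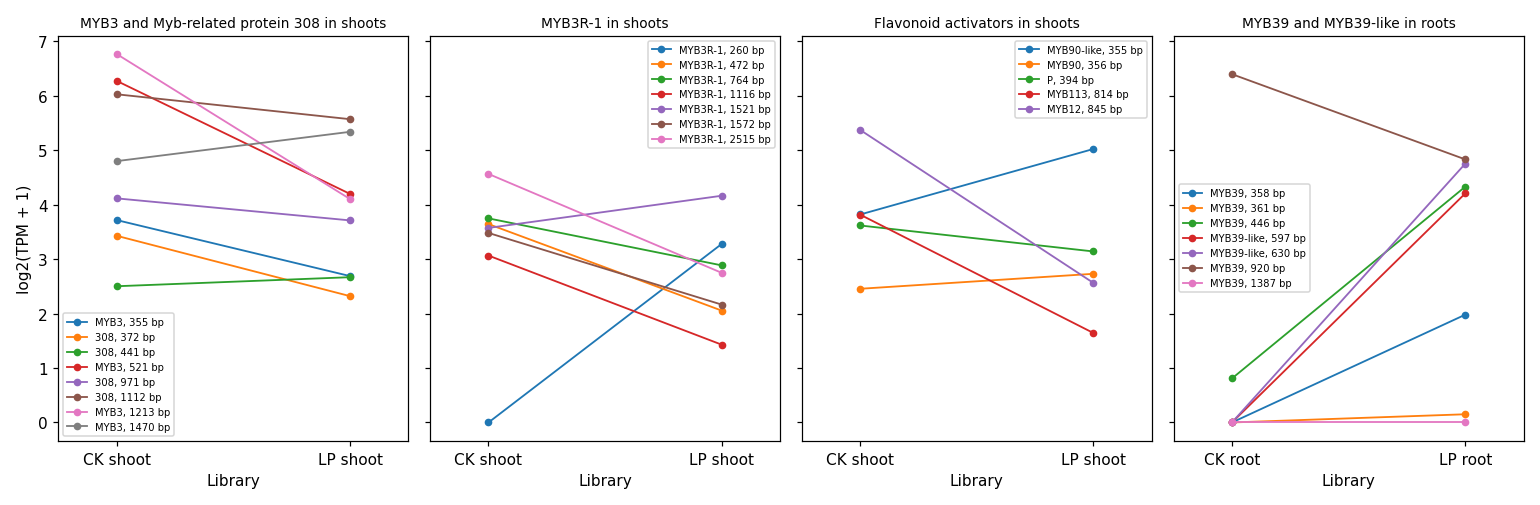
Each line joins the level of 1 MYB contig in the CK and LP library of 1 tissue, as log2(TPM + 1). Shown are contigs named after the repressors MYB3 and MYB308, after MYB3R-1 and after the flavonoid activators in shoots, and after MYB39 in roots. The MYB3 contigs of 521 and 1213 bp and MYB12 drop in LP shoots, and the MYB39 contigs of 446, 597 and 630 bp lie low in CK roots and between 17.4 and 25.9 TPM in LP roots.

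Contigs named after factors of barrier-forming tissues were MYB39 (7 contigs, with MYB39-like) and MYB36 (4 contigs). No contig named MYB39 by Swiss-Prot had an Nr match of that name, and of the MYB36 contigs only that of 1037 bp did. MYB39 was not among the suberin and wax factors listed by number, a list that found no member, and is described by its name. In roots 3 MYB39 and 2 MYB39-like contigs reached 1 TPM, and of these 4 were higher in LP and 1 was lower. Plant-matched genes were 35.7% higher and 35.3% lower there, and the MYB39 counts are too few to read against these. MYB39-like of 630 bp reached 25.9 TPM in LP roots and was at 0 in the other libraries. The contig of 446 bp, of the same assembly cluster and matched in Nr to ODORANT1, a petunia scent regulator, went from 0.75 to 19.1 TPM in roots (log2 ratio 3.52) and from 0 to 2.00 TPM in shoots. MYB39-like of 597 bp reached 17.4 TPM in LP roots from 0 in CK roots, and stood at 1.10 and 2.90 TPM in CK and LP shoots. The contig of 358 bp, whose Nr name is MYB107, was at 0 and 2.94 TPM in CK and LP roots and at 0.83 and 5.09 TPM in shoots.

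The MYB39 contig of 920 bp went against these, 3.03-fold lower in LP roots (log2 ratio -1.56, scaled -1.03) and higher in LP shoots (2.06). Its neighbour in the same assembly cluster, of 1387 bp and matched in Nr to a MYB protein of Betula platyphylla, had no value above 0 in roots and stood at 31.4 TPM in CK shoots and 12.8 TPM in LP shoots (-1.23). Summed, this pair was at 83.1 and 27.4 TPM in CK and LP roots and at 31.6 and 16.5 TPM in CK and LP shoots. The higher value of the 920 bp contig in LP shoots is therefore not seen in the sum, whose log2 ratio there was -0.90. The MYB39 contig of 361 bp, also called ODORANT1 in Nr, went from 0.81 to 18.8 TPM in shoots (3.45) and shares a cluster with a MYB86 contig.

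For MYB36 the contig of 1037 bp was higher in LP roots (29.1 against 14.01 TPM, log2 ratio 1.004, just past the rule) and in LP shoots (3.23 TPM against 0). This contig had no Pfam entry. The contig of 888 bp, called RAX2-like in Nr after a factor of axillary meristems, stood at 6.13, 7.45, 7.36 and 7.72 TPM in CK roots, LP roots, CK shoots and LP shoots, without a difference past the rule. The contig of 375 bp was lower in LP shoots (16.9 and 7.61 TPM, -1.06), and that of 361 bp was above 0 in LP shoots alone, at 7.03 TPM. Of 64 suberin, wax and Casparian strip genes, 27 reached 1 TPM in roots, with 11 higher and 6 lower in LP, and 61 reached it in shoots, with 13 higher and 26 lower. Plant-matched genes were 35.7% higher and 35.3% lower in roots and 23.9% and 20.5% in shoots. The higher counts of the list lay near these shares. The lower count of the list was above the background in shoots and below it in roots. Its median log2 ratio was -0.28 in roots and -0.50 in shoots. Its most abundant gene, omega-hydroxypalmitate O-feruloyl transferase of suberin synthesis, stood at 116.4 and 62.4 TPM in CK and LP roots (-0.89).

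Secondary wall factors were represented by 1 contig, MYB46-like of 410 bp, named after a main switch of wall thickening in Arabidopsis. It was at 0 in both root libraries, with 7.67 TPM in CK shoots and 7.44 TPM in LP shoots, a log2 ratio of -0.04. Among the wall genes, read against the same plant-matched shares, 8 of 25 secondary wall cellulose and xylan genes were lower and 5 higher in LP shoots, and 11 of 20 were lower and 5 higher in LP roots, with a median of -2.07. IRREGULAR XYLEM 15, a xylan protein, had 95.3 TPM in CK and 0.05 TPM in LP roots. Monolignol enzymes and laccases had 19 of 84 genes higher and 34 lower in shoots, and 18 of 61 higher and 28 lower in roots.

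Stress-related members bore the name MYB44 (11 contigs), MYB108 (3 contigs) and MYB1R1 (5 contigs). In roots 2 of 8 MYB44 contigs were higher in LP and 4 lower, and in shoots 2 of 11 were higher and 1 lower. Of plant-matched genes 35.7% and 35.3% were called in roots and 23.9% and 20.5% in shoots, and the MYB44 counts are too few to read against these. The MYB44 contig of 1966 bp, with 16 isoforms and called MYB308-like in Nr, was 4.30-fold higher in LP roots (log2 ratio 2.10, scaled 2.63), from 146 to 627 TPM, and level in shoots at 33.5 and 32.9 TPM. The contig of 836 bp, which Nr also calls MYB44-like, went from 191 TPM in CK roots to 18.3 TPM in LP roots, 10.5-fold lower (-3.32, scaled -2.78), and stood at 81.7 and 106.5 TPM in CK and LP shoots. So the most abundant root contigs of this name moved in opposite directions.

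MYB44 of 1087 bp was higher in both tissues, at 18.1 and 45.2 TPM in CK and LP roots (1.28) and 24.8 and 63.1 TPM in CK and LP shoots (1.31). It shares an assembly cluster with the hydrolase-like contig of 1772 bp, which was lower in LP roots (70.2 and 20.8 TPM) and level in shoots (88.9 and 83.3 TPM). Their sum was 88.3 and 65.96 TPM in roots and 113.7 and 146 TPM in shoots, so neither tissue passed the rule for the pair (-0.41 and 0.36). MYB44 of 1234 bp, so named in Nr too, stood at 17.6, 22.3, 63.6 and 59.1 TPM in CK roots, LP roots, CK shoots and LP shoots. Lower in LP roots were the MYB44 contigs of 524 bp (10.5 TPM and 0) and 550 bp (15.8 and 1.65 TPM). Those of 274, 596 and 795 bp were listed at 0 in both root libraries. In shoots the 596 bp contig was lower (22.7 and 5.84 TPM, -1.79) and the 795 bp contig, matched to a Betula platyphylla MYB, was higher (2.44 and 6.52 TPM, 1.13).

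Of the MYB108 contigs, named after an Arabidopsis factor of wounding, jasmonate and stamen maturation, that of 708 bp was lower in LP roots, at 20.2 TPM against 76.6 TPM (-1.87, scaled -1.33). It stood at 8.58 and 11.7 TPM in CK and LP shoots. MYB108 of 692 bp (14.8 and 20.6 TPM in CK and LP roots) and of 1113 bp (4.43 and 4.01 TPM) stayed within the rule, and so did all 3 in shoots. MYB1R1 was lower in LP roots for 3 of its 5 contigs and higher for 0. The contig of 1645 bp went from 157 to 21.7 TPM in roots (-2.80, scaled -2.27), and was at 93.5 and 67.2 TPM in CK and LP shoots. That of 1414 bp went from 17.5 to 3.50 TPM in roots (-2.04) and stood at 56.1 and 77.8 TPM in shoots, and that of 918 bp went from 21.4 to 5.21 TPM in roots and from 4.07 to 0.90 TPM in shoots (-1.85 and -1.42). By contrast, the abundant contigs of 1080 bp and of 1214 bp (93.3 and 81.2 TPM in CK and LP roots) kept within the rule in both tissues.

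MYB3R-1 carries an additional MYB repeat and in Arabidopsis sets the timing of mitotic genes. Its 7 contigs, with 2 named after Myb-related protein B, formed a list of 9, of which 8 reached 1 TPM in shoots, 1 higher and 4 lower in LP, with a median log2 ratio of -1.09. The longest member of the family, a MYB3R-1 contig of 2515 bp without a Pfam entry, went from 22.6 TPM in CK shoots to 5.71 TPM in LP shoots, 3.96-fold lower (-1.82). In roots it was lower too, at 3.51 and 0.27 TPM (-1.83). MYB3R-1 contigs of 472 bp (11.5 and 3.15 TPM in CK and LP shoots), 1116 bp (7.36 and 1.69 TPM) and 1572 bp (10.2 and 3.48 TPM) were also lower in LP shoots. Another of 764 bp, of the same cluster as the longest, stood at 12.4 and 6.38 TPM (-0.86), short of the rule.

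Against this direction stood the MYB3R-1 contig of 1521 bp, called Myb-related protein B-like in Nr, at 10.9 and 16.9 TPM in CK and LP shoots (0.59) and 3.88 and 3.79 TPM in roots. A contig of 260 bp was above 0 in LP shoots alone, at 8.70 TPM, and is the 1 member of the list that was higher. Myb-related protein B had a contig of 1400 bp at 9.05 and 16.1 TPM in CK and LP shoots (0.77), whose Nr name was MYB36-like, and a contig of 220 bp above 0 in LP roots alone, at 14.9 TPM. Mitotic genes, a list of 27 contigs with names such as B-type cyclins, were lower in LP shoots for 16 and higher for 2, against 20.5% lower and 23.9% higher of plant-matched genes, with a median of -1.60. In roots 6 of 15 were lower and 7 higher. The most abundant of them, cyclin B1-2, was level at 61.9 and 60.2 TPM in CK and LP shoots. Patellin-4 was lower, at 59.5 and 13.6 TPM (-2.05).

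Members named after factors of anther development were MYB24-like (2 contigs), MYB57-like and MYB35-like. MYB57-like, of 668 bp, was listed at 0 in CK roots and at 28.2 TPM in LP roots, and went from 1.26 to 8.04 TPM in shoots (2.00). A MYB24-like contig of 243 bp was above 0 in CK roots alone, at 61.2 TPM, and another of 267 bp went from 0.60 to 22.4 TPM in shoots (3.87) and was at 0 in roots. MYB35-like, of 271 bp, was above 0 in LP roots alone, at 5.94 TPM. None of these 4 contigs had a Pfam entry, so their MYB domain is not on record in the table, and 3 of them are under 500 bp.

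Of the remaining members, MYR2 (Myb-related protein 2), which delays flowering in Arabidopsis, was higher in LP in both tissues. Its contig of 1412 bp stood at 0.59 and 12.9 TPM in CK and LP roots (3.12, scaled 3.66) and at 5.39 and 17.6 TPM in CK and LP shoots (1.54). A MYR2 contig of 261 bp, called APL in Nr, was above 0 in LP roots alone, at 16.0 TPM. Whether the MYR2 contigs are relatives of PHR1 was not tested, and the naming rule did not remove such relatives under other names. The 4 MYB86 contigs included 2 that were lower in LP roots, of 766 bp (7.37 TPM and 0) and of 1203 bp (4.66 and 0.03 TPM). None of the 4 passed the rule in shoots, where they lay between 3.80 and 11.5 TPM, and that of 632 bp was at 0.27 and 1.53 TPM in CK and LP roots (0.99).

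Lower in LP shoots and at 0 in both root libraries were MYB76 (813 bp, 20.9 and 2.83 TPM, -2.51) and MYB82 (499 bp, 8.07 and 2.26 TPM). MYB76 is named after a glucosinolate factor of Arabidopsis, and MYB82 after a factor of trichome formation there. In Nr the MYB82 contig was called TT2-like. Also in shoots, the MYB306 contigs of 461 bp (16.3 and 2.84 TPM) and 495 bp (13.7 and 2.30 TPM) were lower and that of 1279 bp higher (18.3 and 38.6 TPM, log2 ratio 1.04, scaled 0.93), while that of 949 bp (11.9 and 5.79 TPM, -0.92) stayed within the rule. A contig named Hv33 (527 bp) was above 0 in CK shoots alone, at 15.1 TPM, as was a Myb4 contig of 321 bp, at 17.7 TPM. Other Myb4 contigs were those of 269 bp, above 0 in CK roots alone at 4.18 TPM, and of 437 bp, at 6.11 and 4.35 TPM in CK and LP shoots. The Myb4 contig of 724 bp was level in roots (27.4 and 19.4 TPM, -0.48), and in shoots it was at 0 with phosphate and at 6.94 TPM without.

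Higher in LP in both tissues were 6 members (8%, against 6.77% of plant-matched genes) and lower in both 2 (2.67%, against 4.35%). The higher ones were MYB36 of 1037 bp, MYB57-like, MYB39 of 358 and 446 bp, MYR2 of 1412 bp and MYB44 of 1087 bp. The lower ones were MYB1R1 of 918 bp and MYB3R-1 of 2515 bp. Another 2 members (2.67%) were lower in LP roots and higher in LP shoots, and 0 the reverse, against 4.11% and 3.57% of plant-matched genes, so these counts lay near or below the background. They were MYB39 of 920 bp and the Myb4 contig of 965 bp, which went from 13.97 to 0.75 TPM in roots (log2 ratio -3.10) and from 7.30 to 16.0 TPM in shoots (1.03).

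**Figure D4:**
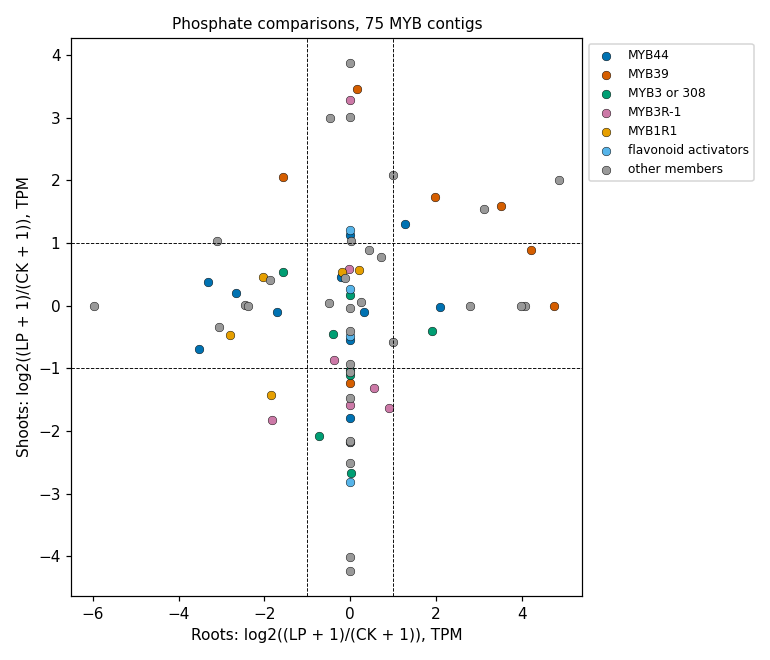
Each point is 1 MYB contig, with log2((LP + 1)/(CK + 1)) of its TPM in roots on the x axis and in shoots on the y axis; dashed lines mark a size of 1. Points on the vertical line at 0 are mainly members under 1 TPM in both root libraries, 6 points lie beyond both lines at upper right, 2 at lower left and 2 at upper left.

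MYB-domain proteins whose names fall outside the rule, such as LHY, REVEILLE and AS1, gave 64 further genes. In shoots 10 of 61 were higher and 20 lower in LP, with a median log2 ratio of -0.33, and in roots 13 of 40 were higher and 11 lower, with a median of 0.30. The root counts lay near the plant-matched shares of 35.7% and 35.3%; in shoots these were 23.9% and 20.5%. The most abundant was the clock gene LHY, at 40.3, 66.1, 213 and 278 TPM in CK roots, LP roots, CK shoots and LP shoots, within the rule in both phosphate comparisons. EFM, a repressor of flowering in Arabidopsis, had 15.5 TPM in CK and 128.6 TPM in LP roots (2.97), while a GAMYB-like gene was lower there (163.6 and 59.7 TPM, -1.44). In shoots REVEILLE 5, a clock-related protein, was higher in LP (20.97 and 45.6 TPM, 1.08) and AS1, which patterns leaves, was lower (39.1 and 16.3 TPM, -1.21).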

How the data were processed

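The authors' deposited table gives TPM per assembled gene for the 4 libraries, with a contig length and protein annotations, per the file headers; cutadapt 1.9 and FastQC are named in the submitters' processing notes. Identifiers look like those of Trinity; which assembler and which quantification tool made the values is not given in the sources used here. Contigs of related genes can split reads between them, and the table holds 0 genes below a largest value of 2.01 TPM. TPM keep no depth, but low values of single-isoform genes near 400 bp were whole multiples, within 0.0065 TPM, of a smallest step (88.4% to 97.5% of values, against 6.08% to 14.5% by chance), which is taken as 1 fragment; this covers counting error only.

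From these values log2((a + 1)/(b + 1)) was computed over the whole table, which understates changes of low genes, for LP against CK in roots and shoots and roots against shoots in each medium, with Python 3.11.15 and pandas 2.3.3. A gene was called at a larger value of at least 1 TPM and a log2 ratio of at least 1 in size. No p-value or SD was computed with 1 library per group. The calling step was tested on simulated data. Members, lists and tests were chosen with earlier results of these data known. Genes named by rule were the 5 highest and 5 lowest ratios of each comparison at 5 TPM or more, the 10 most abundant members, the most abundant of each list and those called in opposite directions; this gave 38 members, and the other members were named besides for completeness. Lists for MYB48 and MYB59, suberin and wax, stomatal lineage, organ boundary and iron deficiency MYBs had 0 members. Numbers were applied to Arabidopsis-style names, so rice Myb4 contigs are in no list. The alternatives were a pseudocount of 0.1 TPM, no filter on low values, median scaling over plant-matched genes, sums over a protein name, contigs of at least 500 bp and, added after the data were seen, members with a MYB domain. Sequences of the contigs were not used here.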

Additional observations from a re-analysis of the deposited data

Results flagged for a closer look

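Members that moved in opposite directions are the results that call for a second look, since they were lower in LP roots and higher in LP shoots. The Myb4 contig of 965 bp had a log2 ratio of -3.10 in roots and 1.03 in shoots, and the shoot value was 0.93 when scaled, short of the rule. MYB39 of 920 bp, whose Pfam entry is a COX15/CtaA domain, had -1.56 in roots and 2.06 in shoots, but summed with the other MYB39 contig of its assembly cluster the ratios were -1.56 and -0.90. With 1 library per group the difference between the tissues was not tested.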

How the results depend on the processing

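No paired analysis was possible because each group has 1 library. The counts of members higher and lower in the 4 comparisons stayed within 1.5 times under a pseudocount of 0.1 TPM, without a filter and with median scaling. Summed over protein names, LP roots against CK roots gave 5 higher and 5 lower, LP shoots against CK shoots 4 and 9, CK roots against CK shoots 4 and 23, and LP roots against LP shoots 4 and 20; there are fewer names than contigs. With contigs of at least 500 bp alone, 8 of 33 tested were higher and 14 lower in LP roots. Of 48 tested in shoots, 9 were higher and 12 lower in LP. Lower in roots than in shoots were 27 of 48 such contigs in CK and 30 of 48 in LP. With a listed MYB domain, an alternative chosen after seeing the data, 7 were higher and 12 lower in LP roots. In LP shoots 10 were higher and 15 lower, and in LP roots against LP shoots 6 were higher and 39 lower. These alternatives leave fewer members to count. The sums over members in CK roots, LP roots, CK shoots and LP shoots were 4231, 5878, 13038 and 18113 when rescaled to plant-matched genes, 2141, 2320, 8155 and 10650 TPM with contigs of at least 500 bp, and 2160.0, 2339, 1580 and 1558 TPM without the MYB44 contig of 1385 bp, which decides the shoot sums. Among ratios of the named members, median scaling took 6 below the rule and 2 above it, a pseudocount of 0.1 TPM took 1 above it, and 0 ratios past the rule changed sign. Of the ratios under the rule 5 changed sign with median scaling, all of LP roots against CK roots (Myb4 of 724 bp, MYB1R1 of 1214 bp, MYB44 of 1385 bp, MYB308 of 1112 bp and MYB3R-1 of 1521 bp). At 400 bp, 3 fragments came to between 0.267 and 0.626 TPM, and values under that cannot be told from 0.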
